A study of Mus musculus with 8 samples.

Results

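The core and naive pluripotency transcription factors were followed as 10 genes, Pou5f1, Sox2, Nanog, Esrrb, Klf2, Klf4, Klf5, Tfcp2l1, Zfp42 and Sall4, on mouse expression arrays. Every probe set that the platform annotation gives to one of these symbols alone was taken, which gave 18 of the 45037 probe sets that are not array controls. Of the 18, 15 passed a filter on dim signals and were tested among 31605 probe sets. The other 3, which belong to Klf5 and Tfcp2l1, were too dim. All 10 genes kept at least 1 probe set, and each gene is counted at its brightest.

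Mouse embryonic stem (ES) cells keep their identity through a small network of transcription factors that bind each other's regulatory regions. POU5F1 (Oct4) and SOX2 pair on composite DNA elements and, with NANOG, form the core of this network. ESRRB, KLF2, KLF4, KLF5, TFCP2L1 and ZFP42 (Rex1) mark the naive state, the state of the early epiblast, and several of them are driven by the cytokine LIF through STAT3. SALL4 is a zinc finger protein that acts with the core factors. Loss of the naive factors marks passage to the primed epiblast and to differentiation.

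The study lowered Rif1, whose protein acts at telomeres, replication origins and DNA breaks, with a short hairpin RNA (shRNA), in 2 ES cell lines grown on feeder cells. Each of 4 groups had 2 arrays. J1 cells (strain 129S4/SvJae) were lipofected with control shRNA or with Rif1 shRNA and were collected at 48 h. F1 cells (C57BL/6xC3H) carried control shRNA or Rif1 shRNA and were at passage 16. The F1 Rif1 shRNA cells were a stable knockdown. The cell line entry of the F1 control arrays also names the stable Rif1 knockdown line, and they were grouped by their titles, whose grouping the transfection entry shares. Whether the F1 cells are 1 clone or a pool is not stated. Separate cultures are not stated for the 2 arrays of a group. The spread between them, which is all that a p-value here measures, may therefore be technical. How the F1 cells received the shRNA is not clear from the labels. Line, strain and culture time differ together between J1 and F1 and cannot be told apart.

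The values are Affymetrix signals on a linear scale. The J1 arrays had 2% trimmed means of 193 to 197 and the F1 arrays of 301 to 309, so the tests used log2(signal + 18) after quantile normalization, and log2 differences are on that scale unless another is named. Precision is limited by having 2 arrays a group. The median residual SD was 0.115 in J1 and 0.0657 in F1 on the log2 scale. One spread was fitted to both lines, so an SE given for J1 may be too small. Signals of different probe sets were not set against each other, since probes differ in brightness at equal RNA.

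RefSeq promoter sequence (build GRCm38.p6) was found for 8 of the 10 genes, in 11 windows of the 250 bases before a start site. Klf5 and Sall4 had no entry. Windows of 3 genes are shown. Nanog holds the composite element that POU5F1 and SOX2 bind. Zfp42 had the largest difference between the lines, and Esrrb had the largest fall in F1 knockdown cells. Each window is given 5′ to 3′ on the gene's strand, and capitals mark matches to 5 motifs searched on both strands.
Nanog (chr6:122707239-122707488, plus strand): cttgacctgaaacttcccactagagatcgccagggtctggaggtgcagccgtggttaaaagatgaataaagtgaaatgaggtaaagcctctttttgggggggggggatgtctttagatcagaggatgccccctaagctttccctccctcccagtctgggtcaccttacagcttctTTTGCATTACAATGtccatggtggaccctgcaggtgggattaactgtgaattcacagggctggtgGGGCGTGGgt
Zfp42 (chr8:43307010-43307259, minus strand): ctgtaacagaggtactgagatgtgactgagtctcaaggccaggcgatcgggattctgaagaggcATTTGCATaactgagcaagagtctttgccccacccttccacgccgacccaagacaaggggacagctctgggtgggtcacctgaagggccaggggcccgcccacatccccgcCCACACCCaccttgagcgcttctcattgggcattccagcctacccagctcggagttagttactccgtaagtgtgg
Esrrb (chr12:86360867-86361116, plus strand): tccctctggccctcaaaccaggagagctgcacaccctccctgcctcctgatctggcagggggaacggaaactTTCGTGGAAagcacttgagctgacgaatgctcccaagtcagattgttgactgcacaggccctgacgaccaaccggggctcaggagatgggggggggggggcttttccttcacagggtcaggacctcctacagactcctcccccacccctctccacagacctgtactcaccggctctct

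The Oct4-Sox2 composite element, searched as the SOX site CATTGT, 1 free base and then ATGCAAA, lay 75 to 62 bases before the Nanog start. Only 2 of 32851 RefSeq windows of this length (0.00609%) held it, and both were overlapping windows of Nanog. The octamer ATGCAAAT lay 186 to 179 bases before the Zfp42 start and was found in 1.6% of all windows. The STAT element TTCNNNGAA lay 178 to 170 bases before the Esrrb start and was found in 7.02% of all windows. A KLF box, GGGNGTGG, was found in windows of Nanog, Pou5f1, Tfcp2l1 and Zfp42 and in 15.9% of all windows. The Esrrb element TCAAGGTCA was in none of the 11 windows and in 0.387% of all. No matches of different motifs overlapped. A match is a run of letters and does not show binding.

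Rif1 itself was lower in the Rif1 shRNA arrays of both lines. At its brightest probe set the signals were 2614 and 3222 in J1 control arrays and 1260 and 1297 in J1 Rif1 shRNA arrays. In F1 they were 4231 and 4247 in controls and 1339 and 1407 in knockdown arrays. On the log2 scale Rif1 changed by -1.08 in J1 and by -1.74 in F1 (SE 0.08 each, limma adjusted p = 7.32e-05 and 3.78e-07). The other 3 Rif1 probe sets also fell, with log2 fold changes from -1.35 to -1.20 in J1 and of -2.02 and -1.63 at 2 of them in F1. The remaining one, 1429490_at, was dim in F1, with 107 and 57.1 in controls and 26.8 and 3.17 in knockdown arrays, so no fold is given there. This probe set had J1 signals of 1013 and 1095 in controls and 392 and 405 after Rif1 shRNA. It had an SE of 0.29, from a spread that takes in the dim F1 arrays. It lost its J1 call when any of the 4 J1 arrays was left out (limma adjusted p from 0.0723 to 0.187).

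Few of the factors changed by 48 h in J1 cells. Of the 10 genes 2 passed the test, Tfcp2l1 and Sall4, and both fell. Across all 14714 genes measured, 4.03% passed, 1.86% as higher and 2.17% as lower. Of the 10, 0 had an unadjusted p under 0.05 in the rising direction and 5 had one in the falling direction, against 9.44% and 10.4% of all genes. All 10 estimates were below zero, against 7160 of the 14714 genes. The median log2 fold change of the 10 was -0.10, against 0.01 over all genes. Deposited signals were lower with no overlap for 7 of the 10, and the same held for 20.8% of all genes. The Pou5f1, Klf2 and Zfp42 estimates lay between -0.03 and -0.02, and each changed sign when some single array was left out.

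In stable F1 knockdown cells 4 of the 10 genes fell and 0 rose. The 4 were Esrrb, Sox2, Zfp42 and Klf2. Across all genes 18.8% passed in F1, 10.6% as higher and 8.16% as lower. By unadjusted limma p under 0.05, 1 of the 10 was higher (Nanog) and 5 were lower, against 16.4% and 15.2% of all genes. The median log2 fold change of the 10 was -0.17, against -0.02 over all genes. In F1 6 of the 10 were lower with no overlap in deposited signals, against 31.1% of all genes, and Nanog was higher with no overlap. Apart from Esrrb, the falls were small, at 16.6% to 17.7% below control. RNA came from whole cultures, so fewer cells of a type and less RNA per cell cannot be told apart.

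**Figure D1:**
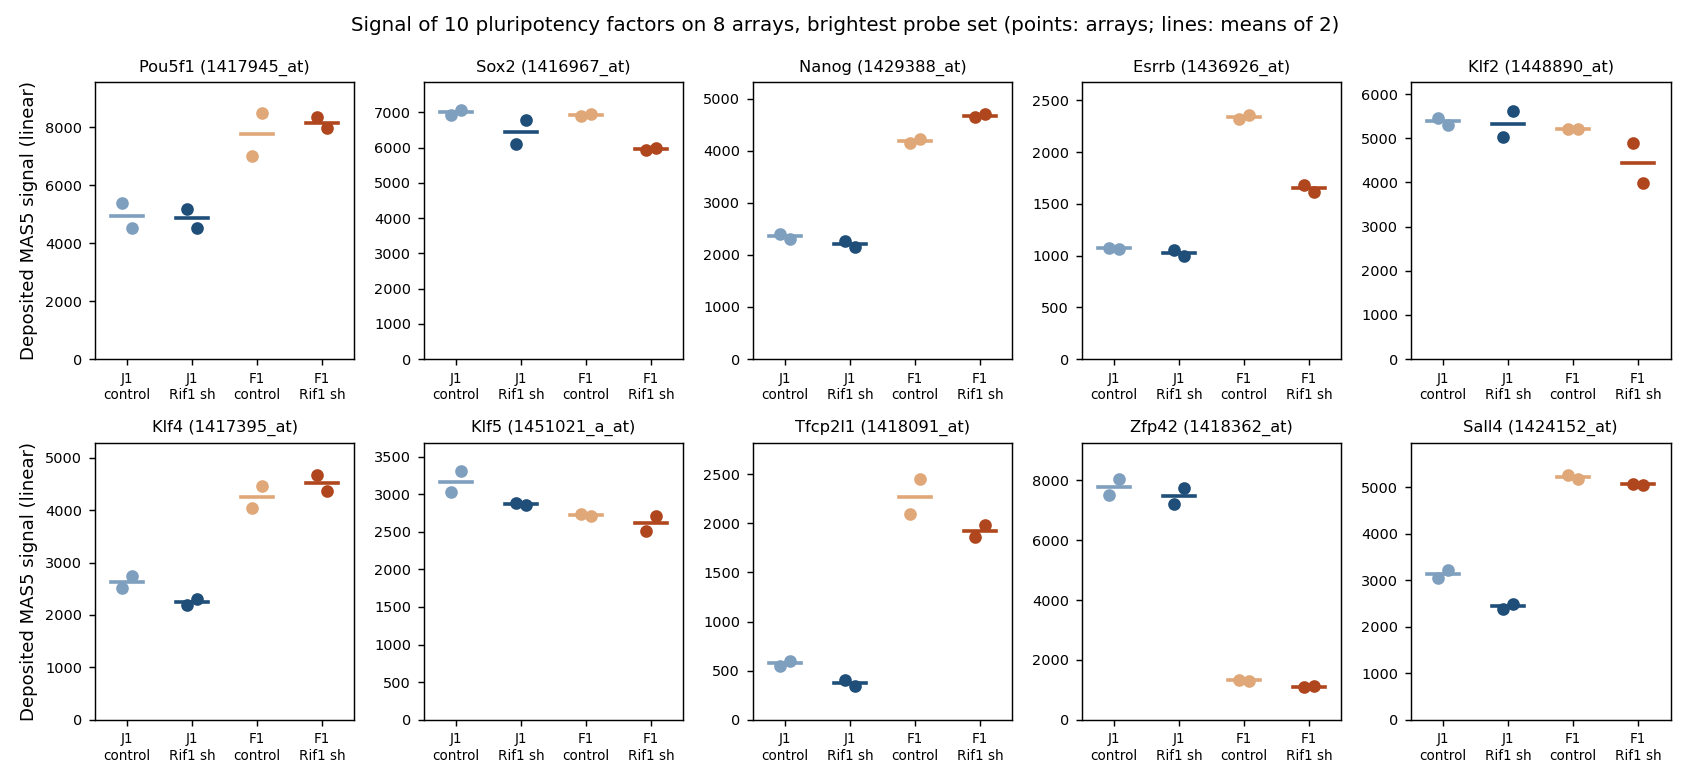
Deposited MAS5 signal (linear, axes from 0) of the 10 factors at the brightest probe set of each. Points are the 8 arrays and bars are group means of 2. Esrrb and Sox2 were lower in both F1 knockdown arrays than in both F1 controls, Tfcp2l1 and Sall4 were lower in both J1 Rif1 shRNA arrays, and Zfp42 lay between 7218 and 8056 on J1 arrays and between 1093 and 1324 on F1 arrays.

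Among the core factors, Pou5f1, which encodes a POU domain factor, had signals of 5383 and 4505 in J1 controls and 5182 and 4527 in J1 Rif1 shRNA arrays. In F1 its signals were 7017 and 8482 in controls and 8342 and 7978 in knockdown arrays. The groups overlapped within each line. Its log2 fold changes were -0.02 in J1 (95% interval -0.24 to 0.19) and 0.08 in F1 (-0.13 to 0.30), so a fall of more than 0.24 in J1 lay outside the interval. Neither passed (limma adjusted p = 0.941 and 0.659).

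Sox2, the HMG box partner of POU5F1, had signals of 6931 and 7084 in J1 controls and 6117 and 6800 in J1 Rif1 shRNA arrays. Both treated arrays were lower, with a log2 fold change of -0.11 that did not pass (SE 0.05, limma adjusted p = 0.243). In F1 the signals were 6907 and 6960 in controls and 5935 and 5987 in knockdown arrays. Sox2 was thus lower in both F1 knockdown arrays by far more than the spread within a group. The fall was 16.6% (log2 fold change -0.26, SE 0.05, limma adjusted p = 0.00256).

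Nanog, the homeobox factor that lets ES cells renew without LIF when it is overproduced, had signals of 2410 and 2310 in J1 controls and 2271 and 2163 after Rif1 shRNA. In F1 its signals were 4144 and 4219 in controls and 4651 and 4707 in knockdown arrays. The J1 arrays were lower and the F1 arrays were higher, in each case with no overlap. The log2 fold changes were -0.08 in J1 (limma adjusted p = 0.436) and 0.14 in F1 (limma adjusted p = 0.0874), and neither passed. The F1 value passed on the values as deposited (0.16, limma adjusted p = 0.0434) and with only the 4 F1 arrays in the fit (0.14, limma adjusted p = 0.0180).

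Esrrb, an orphan nuclear receptor and a direct target of NANOG, had the largest F1 change of the 10. At the brightest probe set, 1436926_at, its signals were 2320 and 2363 in F1 controls and 1685 and 1618 in F1 knockdown arrays. In J1 they were 1074 and 1067 in controls and 1051 and 999.6 after Rif1 shRNA. The F1 groups stood far apart, while the J1 arrays nearly met. In F1 the log2 fold change was thus -0.54 (SE 0.06, limma adjusted p = 0.000106), 31.3% below control, and the J1 value was -0.04 (SE 0.06, limma adjusted p = 0.772). The F1 call held in all 20 alternative settings.

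Of the other 2 Esrrb probe sets, 1 fell in F1 and 1 was not called. At 1441921_x_at, a probe set whose suffix marks probes that may match other sequences, signals were 726.7 and 596.8 in F1 controls and 386 and 390 in F1 knockdown arrays. On the log2 scale this F1 change was -0.74 with an SE of 0.10 (limma adjusted p = 0.000661), and the J1 value was -0.19 (limma adjusted p = 0.391). At 1422986_at, the dimmest of the 3, signals ran from 129 to 162 on F1 arrays and from 85.2 to 106 on J1 arrays. There the log2 fold changes were -0.15 in F1 (limma adjusted p = 0.524, 95% interval -0.43 to 0.13) and -0.29 in J1 (limma adjusted p = 0.272). The F1 estimates of the 3 Esrrb probe sets thus ran from -0.74 to -0.15. The F1 intervals of 1422986_at and of the brightest probe set (-0.67 to -0.41) overlapped at their ends. The difference between probe sets was not tested.

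The Krüppel-like factors KLF2, KLF4 and KLF5 bind the same GC-rich box and can stand in for each other in ES cells. Klf2 had signals of 5200 and 5204 in F1 controls and 4886 and 3996 in F1 knockdown arrays. Both knockdown arrays were lower, but they lay far from each other. The change of -0.28 (SE 0.08) passed with a limma adjusted p of 0.0335, and in 5 of 8 fits with 1 array left out it no longer passed. Without F1 Rif1 shRNA replicate 2 it was -0.14 (limma adjusted p = 0.306). In J1 the Klf2 signals overlapped, at 5462 and 5306 in controls and 5024 and 5616 after Rif1 shRNA (log2 fold change -0.03, limma adjusted p = 0.902).

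Klf4, a target of STAT3, was not called in either line. At the brightest probe set, 1417395_at, signals were 2512 and 2743 in J1 controls and 2189 and 2303 in J1 Rif1 shRNA arrays, lower with no overlap. The J1 difference of -0.21 on the log2 scale (SE 0.07) did not pass (limma adjusted p = 0.133). In F1 the signals were 4044 and 4469 in controls and 4675 and 4374 in knockdown arrays, which overlapped (0.08, limma adjusted p = 0.528). The second Klf4 probe set, 1417394_at, had -0.09 in J1 and -0.02 in F1 (limma adjusted p = 0.437 and 0.886).

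Klf5 at 1451021_a_at had signals of 3029 and 3305 in J1 controls and 2884 and 2862 after Rif1 shRNA, with a log2 fold change of -0.14 (SE 0.06, limma adjusted p = 0.243). In F1 the signals were 2736 and 2706 in controls and 2516 and 2714 in knockdown arrays, with -0.08 (limma adjusted p = 0.455). The dimmer 1451739_at had 397 and 419 in F1 controls and 260 and 359 in knockdown arrays. Both knockdown arrays were lower there, but the log2 fold change of -0.42 did not pass (SE 0.14, limma adjusted p = 0.0674). It passed in 8 of 19 alternative settings, and without F1 Rif1 shRNA replicate 1 it was -0.23 (limma adjusted p = 0.560). Its J1 signals were only 49.3 to 58.2. The third Klf5 probe set ran from 7.75 to 18.9 on the 8 arrays and was not tested.

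Tfcp2l1, a CP2 family factor downstream of LIF and STAT3, had the largest J1 change of the 10. Its signals were 549.6 and 598 in J1 controls and 406 and 339 in J1 Rif1 shRNA arrays, lower with no overlap. This was a fall of 34.5% (log2 fold change -0.61, SE 0.10, limma adjusted p = 0.0101). In F1 the signals were 2090 and 2455 in controls and 1860 and 1985 in knockdown arrays, also lower with no overlap. The F1 log2 fold change of -0.27 did not pass (SE 0.10, limma adjusted p = 0.0993), though it passed in 4 of 20 alternative settings, among them a fit of only the 4 F1 arrays (limma adjusted p = 0.0403). Without F1 control replicate 2 it was -0.15 (limma adjusted p = 0.540). The other 2 Tfcp2l1 probe sets ran from 6.99 to 27.7 and were not tested.

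Zfp42 encodes REX1, a zinc finger protein whose loss is used as a readout of exit from the naive state. Its signals were 1324 and 1307 in F1 controls and 1093 and 1125 in F1 knockdown arrays. Zfp42 was lower in both knockdown arrays, a fall of 17.7% (log2 fold change -0.28, SE 0.05, limma adjusted p = 0.00377). In J1 the signals overlapped, at 7513 and 8056 in controls and 7218 and 7753 after Rif1 shRNA, and the log2 fold change was -0.02 (95% interval -0.13 to 0.09, limma adjusted p = 0.886). The F1 call was lost without F1 Rif1 shRNA replicate 1 (-0.26, limma adjusted p = 0.0575).

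Sall4 at its brightest probe set, 1424152_at, had signals of 3049 and 3217 in J1 controls and 2388 and 2490 in J1 Rif1 shRNA arrays. Both treated arrays were well below both controls, a fall of 21.2% (log2 fold change -0.34, SE 0.05, limma adjusted p = 0.00481). In F1 the signals were 5268 and 5173 in controls and 5082 and 5056 in knockdown arrays, a log2 fold change of -0.07 that did not pass (limma adjusted p = 0.368). The second Sall4 probe set, 1424153_s_at, had -0.29 in J1 (SE 0.11, limma adjusted p = 0.215) and -0.20 in F1 (limma adjusted p = 0.309).

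**Figure D2:**
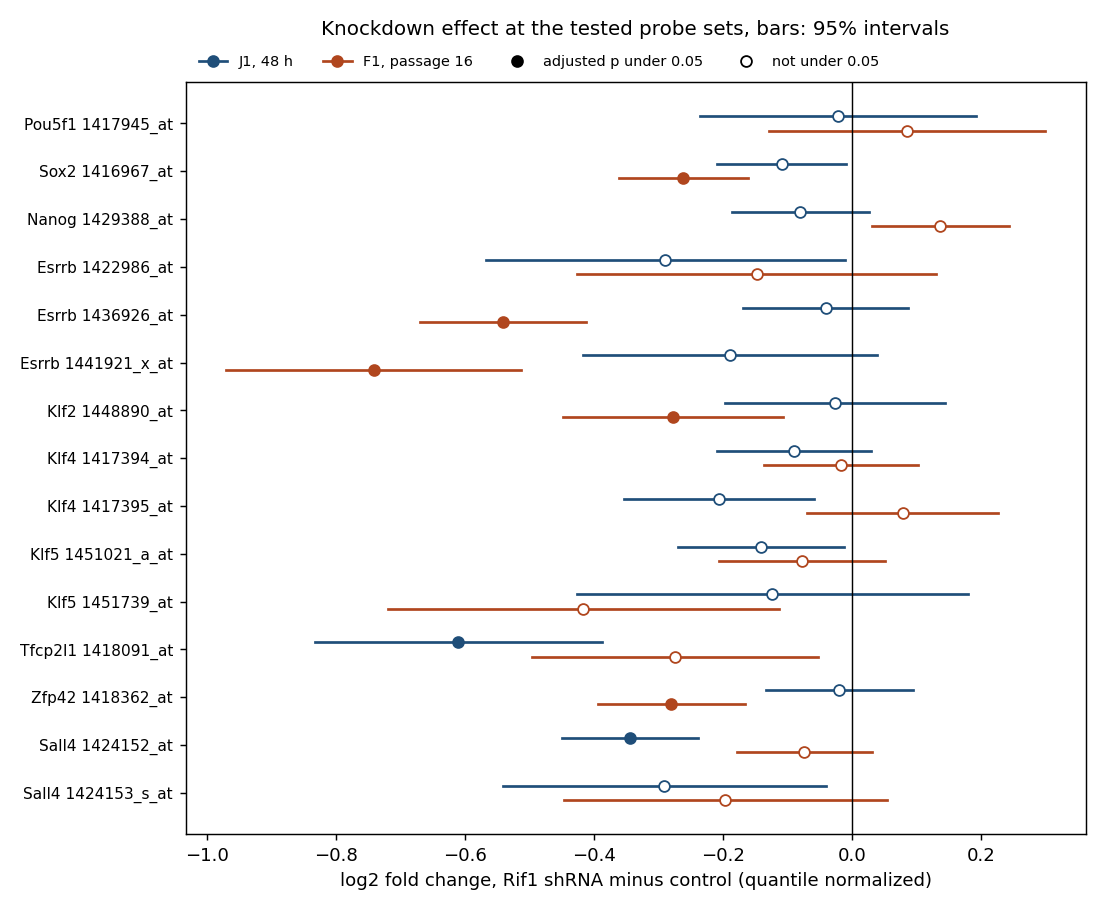
Knockdown effect (log2 fold change, Rif1 shRNA minus control, quantile normalized) at the 15 tested probe sets, J1 in blue and F1 in orange. Points are estimates, bars are 95% intervals from the limma fit, and filled points have an adjusted p under 0.05. The filled points are Tfcp2l1 and 1 Sall4 probe set in J1, and Sox2, 2 Esrrb probe sets, Klf2 and Zfp42 in F1, all below zero.

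Both J1 calls depended on single control arrays. Tfcp2l1 no longer passed without J1 control replicate 1 (-0.66, limma adjusted p = 0.0521) or without replicate 2 (-0.56, limma adjusted p = 0.0984), and Sall4 did not pass without replicate 2 (-0.31, limma adjusted p = 0.0520). With no intensity trend in the fitted spread, 0 of the 10 genes passed in J1 (Tfcp2l1 and Sall4 had a limma adjusted p of 0.0580 and 0.0829), and only Esrrb passed in F1.

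The F1 effect was set against the J1 effect by a test of the difference itself. Among the 10 genes 2 differed, 1 each way, against 10.6% of all genes (6.24% higher and 4.33% lower in F1 relative to J1). Esrrb fell further in F1 (difference -0.50, SE 0.08, limma adjusted p = 0.00384), and a second Esrrb probe set, 1441921_x_at, gave -0.55 (SE 0.15, limma adjusted p = 0.0409). Sall4 fell further in J1 (difference 0.27, SE 0.07, limma adjusted p = 0.0312). Tfcp2l1, called in J1 but not in F1, did not pass this test (0.34, 95% interval 0.02 to 0.65, limma adjusted p = 0.192). Sox2 (-0.15, limma adjusted p = 0.189), Klf2 (-0.25, limma adjusted p = 0.204) and Zfp42 (-0.26, limma adjusted p = 0.0524), called in F1 but not in J1, did not pass it either. Nanog, with opposite signs in the lines, had 0.22 (limma adjusted p = 0.0790). The Esrrb difference at 1436926_at passed in all 8 fits with 1 array left out, that at 1441921_x_at in 3 of them (limma adjusted p from 0.0268 to 0.161), and the Sall4 difference passed in 3 of them (limma adjusted p from 0.0170 to 0.156). Without J1 Rif1 shRNA replicate 1, 6 genes passed this test.

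The control cells of the 2 lines differed in most factors, as they did at 66.1% of all genes. On the normalized scale 9 of the 10 genes differed, 5 higher and 4 lower in F1, against 27.5% and 38.5% of all genes. The differences between lines are given on 3 scales, because values as deposited move the median of all probe sets by 0.30 towards F1, equal 2% trimmed means move it by 0.24 towards J1, and quantile normalization leaves it at -0.02. Zfp42 was lower in F1 controls on all 3 scales, with log2 differences of -3.05 on the normalized scale, -2.55 as deposited and -3.18 with equal trimmed means (limma adjusted p = 1.54e-11, 1.40e-10 and 1.39e-11). Tfcp2l1 was higher in F1 on all 3 scales, at 1.17, 1.95 and 1.33 in the same order (limma adjusted p = 1.84e-06, 1.90e-08 and 5.98e-07). Nanog was also higher on all 3, at 0.20, 0.82 and 0.19 (limma adjusted p = 0.00370, 7.04e-08 and 0.00666). Zfp42, Tfcp2l1 and Nanog each rest on 1 tested probe set, and rescaling the arrays does not check its probes. Probe sets of the same gene could differ widely between the lines. For Rif1 on the normalized scale, 1429490_at had -3.89, while 1429491_s_at, 1437179_at and 1442939_at had -0.06, 0.09 and 0.66.

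The sizes of the other factors turned on the scale. Sox2 was lower in F1 by quantile normalization (-0.36) and by equal trimmed means (-0.65) but had -0.02 as deposited (limma adjusted p = 0.804). Klf2 went the same way, at -0.53, -0.68 and -0.05 (limma adjusted p as deposited 0.608). Pou5f1 was higher in F1 at 0.25 by quantile normalization and 0.65 as deposited, and had 0.01 with equal trimmed means (limma adjusted p = 0.910). Sall4 at 1424152_at had 0.15, 0.73 and 0.10, the last not passing (limma adjusted p = 0.0865), and at 1424153_s_at it had 0.62, 1.36 and 0.73. Klf4 at 1417395_at had 0.08 on the normalized scale (limma adjusted p = 0.335), 0.69 as deposited and 0.06 with equal trimmed means (limma adjusted p = 0.421), while 1417394_at had 0.46, 1.13 and 0.50.

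Esrrb and Klf5 had probe sets of opposite direction between the lines. For Esrrb, 1436926_at was higher in F1 controls (0.35, limma adjusted p = 0.000284) and 1441921_x_at lower (-0.995, limma adjusted p = 7.76e-06). The former had 1.12 as deposited and 0.49 with equal trimmed means, and the latter had -0.22 (limma adjusted p = 0.0670) and -0.84. The third Esrrb probe set, 1422986_at, had 0.13, 0.44 and -0.11 on the 3 scales, of which only the deposited value passed (limma adjusted p = 0.00328). For Klf5, 1451021_a_at was lower in F1 controls (-0.89, limma adjusted p = 2.58e-07) and 1451739_at higher (2.19, limma adjusted p = 1.96e-07). The Klf5 signs were the same as deposited, at -0.22 and 2.52, and with equal trimmed means, at -0.85 and 1.97. The level of neither gene can therefore be ordered between the lines from these arrays.

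**Figure D3:**
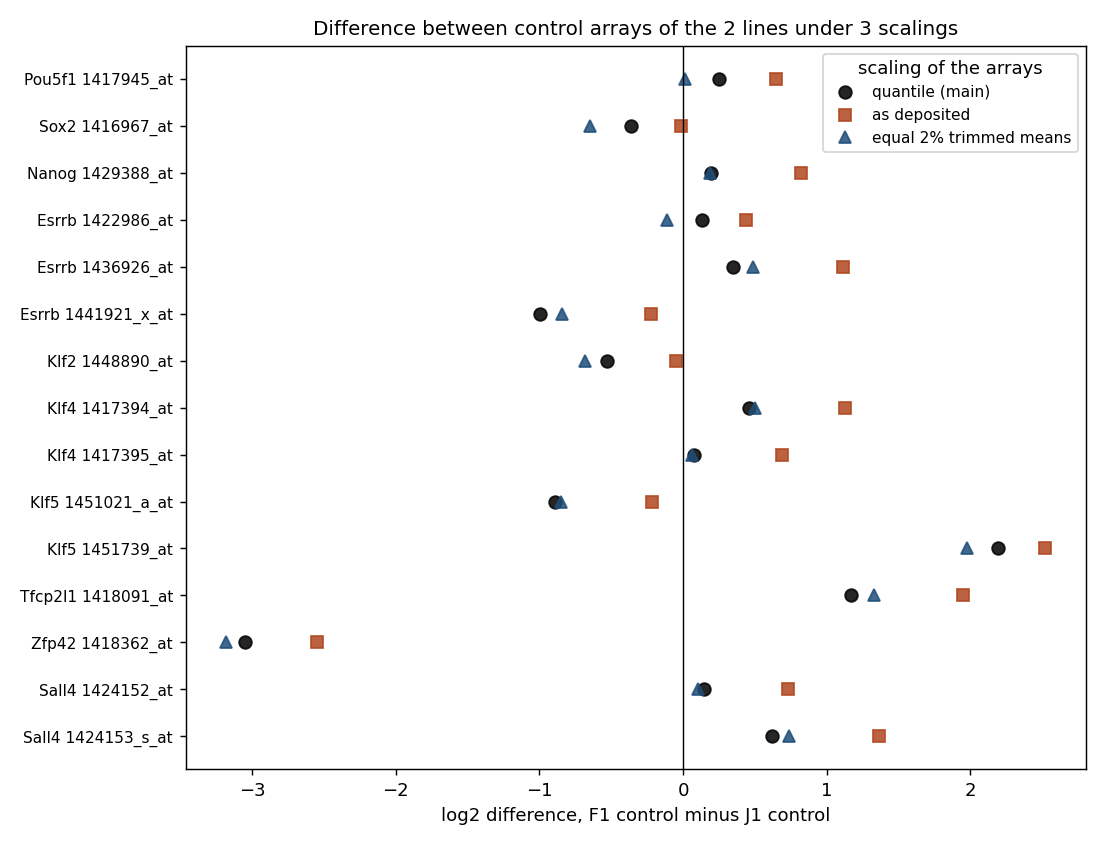
Log2 difference between control arrays (F1 control minus J1 control) at the 15 tested probe sets under 3 scalings of the arrays. Circles are quantile normalized values, squares the deposited values and triangles values scaled to equal 2% trimmed means. Zfp42 lies near -3 and Tfcp2l1 and 1 Klf5 probe set above 0.9 on every scale, while Sox2 and Klf2 are near 0 as deposited and below 0 otherwise.

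The order of the 4 normalized group means was read with neighbours compared by the same fit. Zfp42 was highest in J1 control cells, then after Rif1 shRNA in J1, then in F1 control cells and lowest in the F1 knockdown, and the J1 groups did not differ beyond their spread (limma adjusted p = 0.886). Sox2 and Klf2 followed the same order, and their J1 steps did not pass (limma adjusted p = 0.243 and 0.902). Both J1 Rif1 shRNA arrays were still below both J1 controls for Sox2. As deposited, Sox2 in F1 control cells lay above J1 Rif1 shRNA (log2 difference 0.10, against -0.25 on the normalized scale). Tfcp2l1 ran from F1 control to F1 Rif1 shRNA, J1 control and J1 Rif1 shRNA. Its F1 step did not pass (limma adjusted p = 0.0993), though both knockdown arrays were below both controls. Pou5f1 and Nanog ran from F1 Rif1 shRNA to F1 control, J1 control and J1 Rif1 shRNA, and only the step between the lines passed (limma adjusted p = 0.0371 and 0.00370). Sall4 at 1424152_at ran from F1 control to F1 Rif1 shRNA, J1 control and J1 Rif1 shRNA, and only the last step passed (limma adjusted p = 0.00481). Esrrb at 1436926_at ran from F1 control to J1 control, J1 Rif1 shRNA and F1 Rif1 shRNA, with the J1 groups not differing beyond their spread. The place of the F1 knockdown turned with the scale, since F1 Rif1 shRNA minus J1 Rif1 shRNA was -0.15 on the normalized scale, 0.68 as deposited and 0.02 with equal trimmed means. Klf4 at 1417395_at had no step that passed.

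Other genes of the ES cell state were taken from a fixed list, of which 34 were measured. In J1 3 rose and 1 fell, against 1.86% and 2.17% of all genes. The median log2 fold change was 0.01, the same as over all genes. The J1 calls were Tex19.1, a germline and ES cell gene (0.54), Lefty1, a Nodal antagonist (0.42), Fbxo15, a known target of POU5F1 and SOX2 (0.20), and Zscan10, a zinc finger cofactor of the core network (-0.38). In F1 7 rose and 14 fell, against 10.6% and 8.16% of all genes, with a median of -0.21. The 4 with the smallest p were Sall1, a relative of Sall4 (-1.46, limma adjusted p = 2.56e-06), Mybl2, a cell cycle factor (-0.81, limma adjusted p = 1.07e-05), Fbxo15 (0.45, limma adjusted p = 6.67e-05) and Tcl1, an AKT coactivator (-0.90, limma adjusted p = 0.000211). The direction within the list was therefore mixed. All 4 genes called in J1 passed in the same direction in F1, Tex19.1 (0.51), Lefty1 (0.36) and Fbxo15 as higher and Zscan10 as lower (-0.29).

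Genes of the signals that feed the network were measured for 24 of a list on LIF-STAT3, Wnt, BMP and FGF-ERK. In J1 2 rose and 2 fell, against 1.86% and 2.17% of all genes, with a median of -0.01. Stat3, which carries the LIF signal, fell (-0.68, SE 0.07, limma adjusted p = 0.000538), and so did Il6st, the gp130 receptor chain (-0.53, limma adjusted p = 0.00642). Stat3 signals were 949 ± 35.1 in J1 controls and 577 ± 3.61 after Rif1 shRNA (SD, n = 2). Dusp6, an ERK phosphatase induced by ERK (0.40), and Id1, a BMP target (0.41), rose. In F1 9 rose and 3 fell, against 10.6% and 8.16% of all genes, with a median of 0.22. The 4 F1 rises with the smallest p were Id1 (1.56), Socs3, a STAT3 target that damps LIF signalling (0.73), Dusp6 (0.77) and Bmp4 (1.08), with limma adjusted p from 1.82e-06 to 4.50e-05. Stat3 was higher in F1 knockdown cells (0.23, limma adjusted p = 0.0396), and its F1 effect differed from that in J1 (0.91, limma adjusted p = 0.000221). The 3 F1 falls were Lifr (-0.42), Il6st (-0.30) and Tcf7l1 (-0.23), with limma adjusted p of 0.00601, 0.0242 and 0.0328. Il6st thus passed as lower in both lines, and its effects did not differ between them (0.23, limma adjusted p = 0.254).

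Genes of the primed epiblast and of exit from the naive state were measured for 19 of a list. In J1 0 of them passed by limma, against 4.03% of all genes. At an unadjusted limma p under 0.05 there were 4, all higher, against 9.44% of all genes as higher. In F1 3 rose and 4 fell, against 10.6% and 8.16% of all genes, with a median of 0.02. Eomes, a T-box factor of primitive streak and trophoblast (0.97), and Nodal, the ligand that sustains primed cells (0.52), rose. Otx2, a driver of the primed state (-0.80), and Zic5 (-0.82) fell, and limma adjusted p for the 4 ran from 0.000137 to 0.000207. Fgf5, the usual primed marker, was too dim to be tested.

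**Figure D4:**
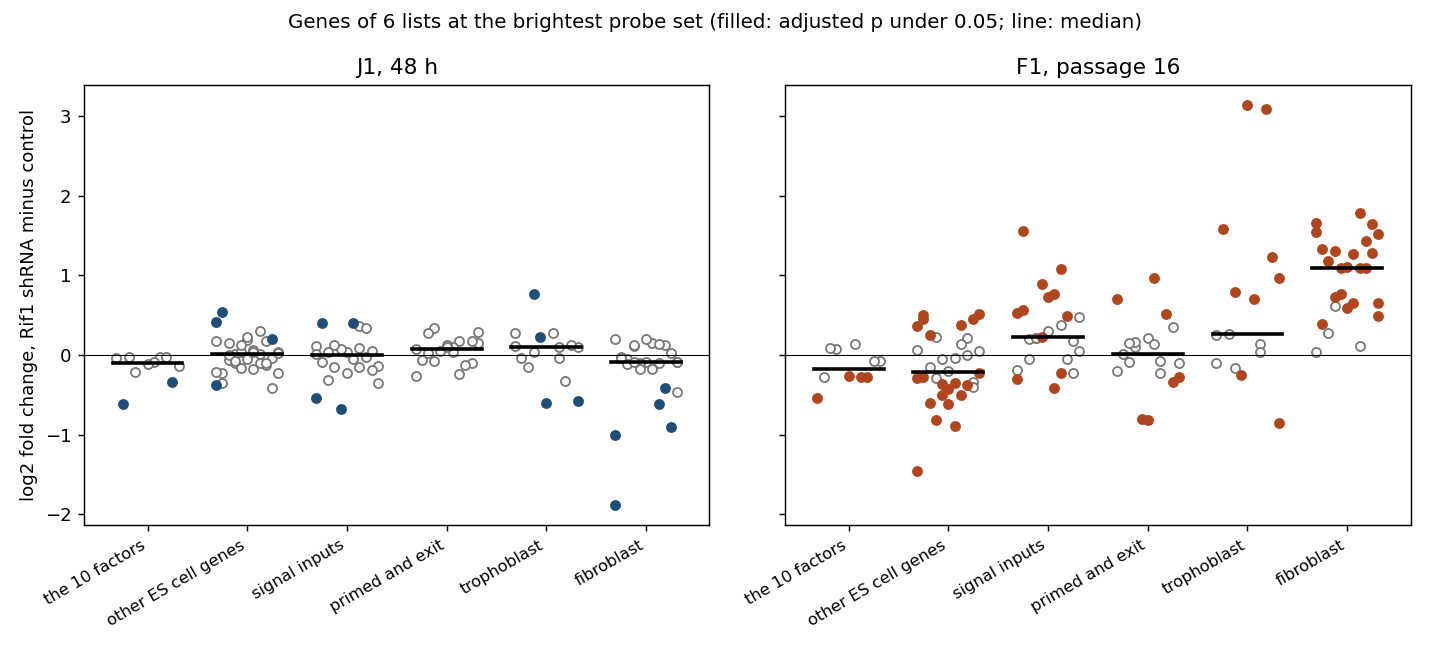
Log2 fold change (Rif1 shRNA minus control) of each measured gene of 6 lists (the 10 factors, other ES cell genes, signal inputs, primed and exit, trophoblast, fibroblast) at its brightest probe set, J1 on the left and F1 on the right. Filled points have an adjusted p under 0.05 and black lines are list medians. In F1 the fibroblast list has a median of 1.09, the 10 factors -0.17 and the other ES cell genes -0.21, while the J1 medians of these 6 lists lie between -0.10 and 0.10. The primitive endoderm and 2-cell lists are not drawn.

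Markers of other cell types moved with the F1 comparison. Of all genes measured, 10.6% passed as higher and 8.16% as lower in F1. Of 26 feeder fibroblast genes measured, 22 rose in F1 and 0 fell. Their summed signal was 21232 to 21266 in F1 controls and 40538 to 42315 in F1 knockdown arrays. Bright genes weigh heavily in this sum. From F1 control to knockdown, mean signals went from 3069 to 6897 for Lgals1 and from 2444 to 6001 for S100a6. Those of Prrx1 went from 52.9 to 160 and those of Twist1 from 67.1 to 140. Whether the sum follows feeder content was not tested. Postn (1.28) and Col3a1 (1.26) were among the genes that rose, Col1a1 did not pass (0.62, limma adjusted p = 0.0599), and Lum was too dim. Of 15 trophoblast genes, which share Eomes with the primed list, 7 rose and 2 fell in F1, and their sum went from 6340 to 6684 up to 13965 to 14864. The keratin genes Krt18 (3.14) and Krt8 (3.09) made the largest rises, while Cdx2 had 0.14 (limma adjusted p = 0.508) and Gata3 and Elf5 were too dim. Most of the rise in the sum came from these keratins, with mean signals from 480 to 4330 for Krt18 and from 515 to 4427 for Krt8. The 2 falls were Tfap2c (-0.85, limma adjusted p = 5.2e-05) and Phlda2 (-0.25, limma adjusted p = 0.00509). Of 19 primitive endoderm genes 4 rose and 3 fell in F1. The summed signal of the 10 factors was 41049 to 43339 in F1 controls and 39540 to 40725 in knockdown arrays. The part of these markers in the F1 values of the factors was not tested.

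In J1, 5 of the 26 fibroblast genes fell and 0 rose, with sums of 16359 to 17328 in controls and 15207 to 15248 after Rif1 shRNA. Trophoblast genes were mixed (2 rose, 2 fell), and 4 of 19 primitive endoderm genes fell and 0 rose. Of all genes measured, 1.86% passed as higher and 2.17% as lower in J1. Of a list of 2-cell stage genes, 8 of 11 rose in J1 and 10 of 11 in F1. This list, like the factors and the other gene lists, was chosen with earlier results of these data known. None of their counts is therefore an independent test. Those not passing in J1 were Tcstv1 (0.14, limma adjusted p = 0.565), Zfp352 (0.23, limma adjusted p = 0.311) and Eif1a (-0.05, limma adjusted p = 0.753). The ratio of the actin 3′ to 5′ control probe sets, a measure of RNA integrity and labelling, was 2.71 and 2.61 in J1 controls, 2.18 and 2.17 in J1 Rif1 shRNA arrays and 1.33 to 1.41 on F1 arrays. This ratio moved with the J1 comparison and with the comparison between lines, and its part in the values of the factors was not tested.

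The genes whose normalized profile over the 8 arrays was most like that of Tfcp2l1, the factor with the largest J1 change, were Mcm4 (Pearson r = 0.9984), Rbm14 (0.9972) and Sf3b3 (0.9961) among 14704 genes compared. For Esrrb, the factor with the largest F1 change, they were Nf2 (0.997), Dhodh (0.9876) and Acacb (0.9867). The 8 arrays fall into 2 lines, so a likeness over them includes the difference between the lines. Nf2, Dhodh and Acacb fell in F1 by 0.63, 0.63 and 0.55 on the log2 scale. Mcm4, Rbm14 and Sf3b3 had J1 values of -0.22, -0.25 and -0.33. These genes were picked for likeness over the same 8 arrays, so their changes are not independent of that choice.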

How the data were processed

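Total RNA (Trizol) was labelled with biotin and put on Affymetrix arrays, per the labels' protocols. The authors deposited intensity values, 1 signal for each probe set on each array, linear in scale. They come from MAS5, per the submitters' processing notes; no version is given. The treatment entry mentions virus or siRNA, while the sample entries name shRNA.

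After the 64 control probe sets were set aside, log2(signal + 18) was quantile normalized over the 8 arrays (18 is the 10th percentile of the values). A probe set was kept if 2 or more arrays had it above their own 40th percentile. One limma model (version 3.58.1, R 4.3.3) held a mean for each group, and eBayes used an intensity trend (4 residual and 6.88 prior degrees of freedom). Tests were two-sided. "Passed" means a Benjamini-Hochberg adjusted p under 0.05 over all kept probe sets of that contrast. The model was run on simulated data with the same noise SD for every probe set and both lines. The planted effects were larger than the knockdown effects of the factors. Those data therefore do not check effects of the size seen here or unequal spreads. Figures used matplotlib 3.10.9 and Python 3.11.15.

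Symbols came from the platform annotation: 34945 probe sets had 1 symbol, 932 had several and 9160 had none, and 34884 matched a RefSeq symbol. The factors and the gene lists were chosen with earlier results of these data known. The text names every probe set of the factors and of Rif1, and 3 genes per profile match. The rule for lists was up to 4 genes per line by smallest p among those that passed (defining markers for cell type lists). Genes named beyond this rule include Lifr, Il6st, Tcf7l1, Tex19.1, Lefty1 and Zscan10 in F1. They also include Lgals1, S100a6, Prrx1, Twist1, Tfap2c and Phlda2 of the cell type lists. Fgf5, Lum, Gata3, Elf5, the Stat3 value in F1 and the J1 values of Tcstv1, Zfp352 and Eif1a were added after their values were seen. Some lists share genes.

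Replicates correlated at 0.991 to 0.997, and 12 to 22 probe sets per pair had identical values. Deviations of same-numbered arrays correlated at -0.339 in J1 and 0.194 in F1, so the numbers were not treated as pairs. Alternatives were 2 other offsets, 3 scalings, 2 filters, no intensity trend, a replicate block, the mean of a gene's probe sets, a fit per line and each array left out. A crossed block in J1 was chosen after seeing the data.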

Additional observations from a re-analysis of the deposited data

Results flagged for a closer look

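Effects that differed between the lines by the test of the difference (F1 effect minus J1 effect, limma) were found at 3 probe sets of the factors and 2 of Rif1. The Esrrb probe set 1436926_at had -0.50 (SE 0.08, adjusted p = 0.00384) and 1441921_x_at had -0.55 (SE 0.15, adjusted p = 0.0409), while 1422986_at had 0.14 (adjusted p = 0.702). The Sall4 probe set 1424152_at had 0.27 (SE 0.07, adjusted p = 0.0312), while 1424153_s_at had 0.09 (adjusted p = 0.788). The Rif1 probe sets 1429491_s_at and 1437179_at had -0.66 (adjusted p = 0.00489) and -0.82 (adjusted p = 0.00796), while 1442939_at had -0.44 (adjusted p = 0.289) and 1429490_at, which was dim in F1, had -0.22 (adjusted p = 0.806). Groups of 2 arrays allow no search for single outlying arrays.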

How the results depend on the processing

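Of 1135 values of factor probe sets under alternatives, 1043 kept their direction and their side of the threshold, and 17 changed sign with neither value past it. A further 45 lost and 28 gained a call, and 2 reversed. The reversals were in the line contrast with the mean of a gene's probe sets, where Esrrb 1436926_at became -0.17 (limma adjusted p = 0.0248) and Klf5 1451021_a_at became 0.65 (limma adjusted p = 7.32e-05). Rif1 1429491_s_at also turned, to 0.54 as deposited (limma adjusted p = 0.000114). With no intensity trend the genes past the threshold numbered 0 in J1, 1 in F1 and 1 for the difference, against 2, 4 and 2. With 1 array left out they ranged from 0 to 2 in J1, 3 to 6 in F1, 1 to 6 for the difference and 7 to 9 between the lines. A fit of the 4 F1 arrays alone called 6 genes, with Nanog and Tfcp2l1 added, and a fit of the 4 J1 arrays alone called 2. Calls over all probe sets moved more, from 227 to 1802 in J1 (1005 in the reported fit) and from 1842 to 8223 in F1 (4753). Replicate numbers did not pair the arrays. With the replicate block the counts were 2 in J1, 4 in F1, 2 for the difference and 8 between the lines, and calls over all probe sets were 470, 3673, 1705 and 17358. With the block crossed in J1 the counts were 2, 5, 2 and 7. Signal over background limits Klf5 1451739_at in J1, Rif1 1429490_at in F1 and the 3 untested probe sets.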
